A study of Mus musculus with 12 samples.

Results

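Tumour and adjacent lung tissue from mice in the arm labelled house dust mite (HDM) were compared by bulk RNA sequencing, with 3 tumour libraries and 3 normal lung libraries. These 6 libraries were taken by their sample labels from the 12 of the series. The other 6 libraries are the same pair of tissues from an arm labelled VEH. The tumours are labelled LLC and were large enough to be seen by eye, and the normal tissue is lung next to a tumour. Neither VEH nor LLC is spelled out in the labels. Both were cut out under a binocular microscope and snap frozen, and about a milligram of each piece went into RNA extraction. The genotype, strain, sex and age of the animals are not given in the labels. Values are CPM, counts scaled to a common library total and corrected for library composition, and are listed in the order of replicates 1, 2 and 3. A tumour piece holds tumour cells with whatever host lung, blood vessels and immune cells were cut with it. In such bulk samples, fewer cells of a type and less RNA per cell cannot be told apart.

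Total counts ran from 25453248 to 28878040 in the normal HDM libraries and from 21875539 to 30187882 in the tumour HDM libraries. The names of the count columns begin with a tag, and each of the 6 tags joins 1 normal and 1 tumour library. Under HDM, 1 tag joins normal replicate 1 with tumour replicate 3, and another joins normal replicate 2 with tumour replicate 1. Normal HDM replicate 3 and tumour HDM replicate 2 carry tags whose other library is labelled VEH, so either the tag is not the animal or a label disagrees with it. Tumour HDM replicate 3 stood farthest out on the first principal component of the 12 libraries, at 151 against 68.2 and 69.3 for tumour replicates 1 and 2. Normal HDM replicate 3 stood apart from the other normal HDM libraries on the second component, at 23.7 against -48.1 and -33.3. On that component normal VEH replicates 1, 2 and 3 were at 35.2, -36.1 and 29.0. Normal VEH replicate 2 carries the tag of tumour HDM replicate 2. Whether labels were exchanged was not tested. For several results that rest on tumour HDM replicate 3 or normal HDM replicate 3, the fit without that library is also given.

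The adult lung exchanges gas across alveoli lined by flat type 1 cells and by type 2 cells that secrete surfactant. Conducting airways are lined by club cells, which detoxify inhaled chemicals, and by ciliated cells, and a dense bed of capillaries lies under the alveolar wall. House dust mite extract is a common allergen that provokes type 2 airway inflammation, with interleukin-4 and interleukin-13 signalling, mucus, eosinophils and antibody production. A tumour growing in lung replaces this tissue with dividing cells and recruits macrophages, fibroblasts and new matrix.

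Genes of cell division, ribosome assembly, glycolysis and fetal growth were higher in the tumours, as were Fn1, Col3a1 and Dcn of the extracellular matrix and the complement genes of macrophages. Genes of alveolar and airway epithelium, of endothelium, of smooth muscle, of B cells and of major histocompatibility complex (MHC) class II were lower. Of 22190 genes tested, 11512 changed at an adjusted p under 0.05, which is 51.9% of them. In the tumours 5110 genes (23%) were higher and 6402 (28.9%) were lower. The 3 tumours lay wholly above the 3 normal samples for 29.6% of the genes and wholly below them for 33.5%, together 63.1%. Against so wide a background, a list with about 1 member in 2 called does not stand apart from the other genes. Lists below are therefore given with their counts, and several with their median. The median log2 fold change of all genes tested was -0.08.

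Ranked by size under a rule given with the methods, the largest rises included Zic2, a transcription factor of the developing brain (0.492, 0 and 0.147 to 20.7, 20.8 and 22.7 CPM, log2 fold change 6.65 ± 1.37 SE, edgeR adjusted p = 0.0029), and Syt13, a synaptotagmin (0.655, 0 and 0.442 to 33.8, 44.6 and 48 CPM, log2 fold change 6.84 ± 1.17 SE, edgeR adjusted p = 0.0011). Acsl6, which activates fatty acids, also rose (0.655, 0.302 and 0.295 to 27.3, 41.1 and 41.4 CPM, log2 fold change 6.45 ± 1.30 SE, edgeR adjusted p = 0.0025). In CPM, large gains fell on Ctsl, the lysosomal protease cathepsin L (340.1, 234 and 257 to 2291, 4085 and 3176 CPM, log2 fold change 3.52 ± 0.54 SE, edgeR adjusted p = 0.00059), on the filament protein Vim (1059.8, 929 and 765 to 2866, 2694 and 2980.2 CPM, log2 fold change 1.63 ± 0.24 SE, edgeR adjusted p = 0.00042) and on the translation factor Eef1a1 (6719, 5617 and 4471 to 9347, 11088 and 9784 CPM, log2 fold change 0.85 ± 0.20 SE, edgeR adjusted p = 0.0057). Large falls included Dpep1, a dipeptidase of vessels (102, 78.2 and 101 to 1.15, 0.888 and 0.0607 CPM, log2 fold change -7.09 ± 1.02 SE, edgeR adjusted p = 0.00043), and Lyz2, the lysozyme of macrophages and type 2 cells (11739, 12243 and 4349.9 to 2503, 3268 and 1110.3 CPM, log2 fold change -2.04 ± 0.58 SE, edgeR adjusted p = 0.014). The rule took only genes whose groups did not overlap, so that the 3 tumours lay on one side of all 3 normal samples is no finding about these 8 genes. Lyz2 did not pass without tumour replicate 3.

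**Figure D1:**
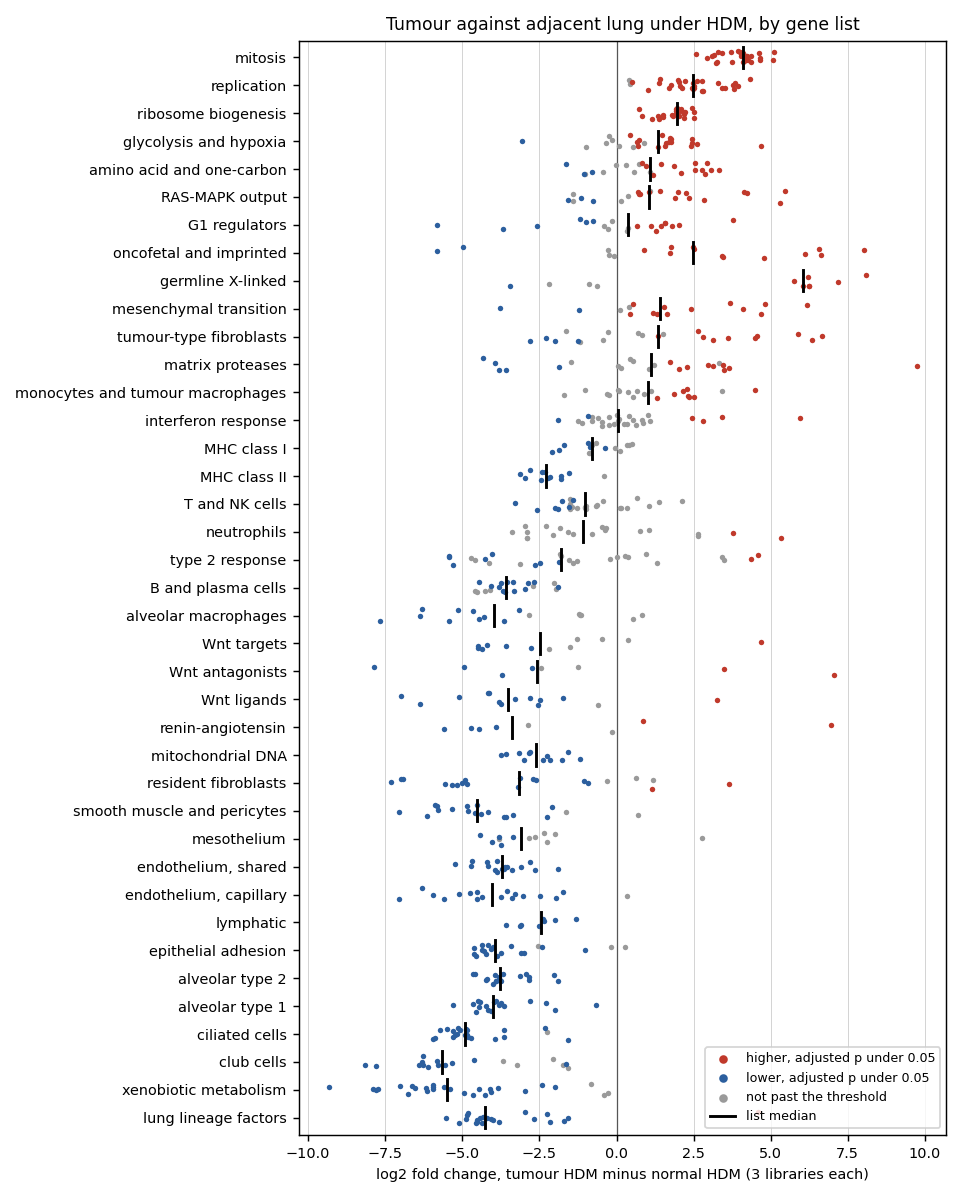
Log2 fold change (tumour HDM minus normal HDM, horizontal axis) of every tested member of 39 gene lists (rows), with 3 libraries in each group. Each point is a gene, coloured by its call at an adjusted p under 0.05, and the bar is the list's median: mitosis sits at 4.08 at the top, and club cells at -5.66 near the bottom.

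Surfactant and other genes of alveolar type 2 cells were lower in the tumours, by a median log2 fold change of -3.78 over 18 genes. Sftpc, a surfactant protein made by type 2 cells alone in the lung (chr14:70758389-70761524, GRCm39), was at 25182, 21182 and 15192 CPM in the normal libraries and 1287, 1275 and 3.12 CPM in the tumours (log2 fold change -4.59 ± 1.46 SE, edgeR adjusted p = 0.023). Sftpb, another surfactant protein, was at 6516, 6022 and 4115 CPM in normal lung and 503, 524 and 0.637 CPM in tumours (log2 fold change -4.02 ± 1.41 SE, edgeR adjusted p = 0.035). All 3 tumours lay below all 3 normal samples for both genes, and tumour replicate 3 lay far below the other tumours. Over the list, the median gene stood at 10.9%, 10.7% and 0.0815% of its normal mean in tumour replicates 1, 2 and 3. All 18 genes tested passed the test as lower, yet 11 did so without normal replicate 1, 11 without normal replicate 2, 10 without tumour replicate 1 and 9 without tumour replicate 2. Without tumour replicate 3, 15 were lower, with a median of -3.12. Abca3, the lipid transporter that loads surfactant, was steadier among the tumours, at 97, 100.3 and 60.3 CPM against 624, 802 and 432 CPM in normal lung (log2 fold change -2.85 ± 0.30 SE, edgeR adjusted p = 0.00011). Sftpc did not pass without tumour replicate 1 or 2, and Sftpb did not pass when any HDM library but tumour replicate 3 was left out.

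Type 1 cell genes were lowest in tumour replicate 3 as well. All 18 tested were lower, with a median log2 fold change of -4.02, and the median gene stood at 7.34%, 10.5% and 0.216% of its normal mean in tumours 1 to 3. Without tumour replicate 3, 17 were lower, with a median of -3.41. Ager, the receptor that marks type 1 cells, was at 2186, 2374 and 1908 CPM in normal lung and at 111, 166 and 1.36 CPM in the tumours (log2 fold change -4.54 ± 1.24 SE, edgeR adjusted p = 0.011). Cav1, a membrane protein that type 1 cells share with endothelium and many cultured cells, fell least of the list, from 1031, 941 and 1145 to 638, 691 and 657 CPM (log2 fold change -0.65 ± 0.22 SE, edgeR adjusted p = 0.031). The call of Cav1 was lost when any HDM library but normal replicate 2 was left out.

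Airway genes were lower by more than alveolar ones in median, at -5.66 for 18 club cell genes and -4.90 for 22 ciliated cell genes. Scgb1a1, the main secreted protein of club cells (chr19:9061000-9065326), was at 21507, 50964 and 53358 CPM in normal lung and 597, 1043 and 2.27 CPM in tumours (log2 fold change -6.26 ± 1.83 SE, edgeR adjusted p = 0.016). The club cell list had 13 genes lower and 5 that did not pass. Among the normal libraries, each of these 5 was high in normal replicate 2 alone. Bpifa1, a secreted antimicrobial protein of the upper airway, was at 3.93, 304 and 0.589 CPM in the normal libraries and 77.3, 15.4 and 0.121 CPM in the tumours. Without tumour replicate 3 the club cell list had 13 genes lower and the ciliated list 21. Normal replicate 1 was the lowest of the normal libraries for all 22 tested ciliated genes and for 12 of the 18 club cell genes. Foxj1, the transcription factor that builds motile cilia, was at 90.2, 319 and 245 CPM in normal lung and 12.2, 9.87 and 0.152 CPM in tumours (log2 fold change -4.89 ± 1.41 SE, edgeR adjusted p = 0.015). Scgb1a1 did not pass without tumour replicate 1.

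Enzymes that process foreign chemicals, many of them made in club cells, were lower for 25 of 28 members with a median of -5.48, and the other 3 did not pass. The carbonyl reductase Cbr2 (chr11:120620312-120622940) went from 3898, 8201 and 7011 to 75.2, 99.7 and 72.2 CPM (log2 fold change -6.27 ± 1.12 SE, edgeR adjusted p = 0.0013). Unlike the surfactant genes, Cbr2 was at similar levels in the 3 tumours. The flavin monooxygenase Fmo1 went from 193, 203 and 318 to 3.37, 2.8 and 0.425 CPM (log2 fold change -6.77 ± 1.03 SE, edgeR adjusted p = 0.00059). Inmt, a methyltransferase of lung fibroblasts and one of the 15 largest falls, went from 1083, 715 and 1671 to 9.86, 11.9 and 0.0607 CPM (log2 fold change -7.32 ± 1.52 SE, edgeR adjusted p = 0.003).

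Transcription factors that pattern the lung were lower for 21 of 22 members, with a median of -4.25, or -3.67 without tumour replicate 3. Nkx2-1, which specifies lung epithelium, was at 190.0, 211 and 241 CPM in normal lung and 15.2, 12.7 and 0.0607 CPM in the tumours (log2 fold change -4.53 ± 1.17 SE, edgeR adjusted p = 0.0089). The exception was Sox9, a factor of the distal tips of the fetal lung and of cartilage, which rose 24.1-fold from 2.13, 1.74 and 1.91 to 62.9, 41.1 and 35.8 CPM (log2 fold change 4.59 ± 0.94 SE, edgeR adjusted p = 0.0027). Gata6 remained at 13.4, 16.8 and 13.9 CPM in the tumours against 48.6, 53 and 41.6 CPM in normal lung (log2 fold change -1.70 ± 0.25 SE, edgeR adjusted p = 0.00048), and did not drop further in tumour replicate 3 as Nkx2-1 did.

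Junction and keratin genes split. Of 20 epithelial adhesion genes, 17 were lower and 3 did not pass. Cdh1, the E-cadherin that joins epithelial cells, was at 425, 769.9 and 617 CPM in normal lung and 44.6, 43.7 and 0 CPM in tumours (log2 fold change -4.36 ± 1.40 SE, edgeR adjusted p = 0.024), with no count at all in tumour replicate 3. That library's 0 allows up to 0.091 CPM at 3 counts. Krt8 and Krt18, the paired keratins of simple epithelium, did not pass, and their groups overlapped. Krt8 was at 237, 434 and 289 CPM in normal lung and 218, 299 and 335 CPM in tumours (log2 fold change -0.17 ± 0.26 SE, edgeR adjusted p = 0.6). Krt18 was at 126, 160.1 and 142 and 144, 189.9 and 187 CPM (log2 fold change 0.28 ± 0.19 SE, edgeR adjusted p = 0.23), while Krt7 and Krt19 were lower (-3.42 and -3.76). The third member of this list that did not pass is Cldn4, a tight junction protein, at -2.54 ± 1.05 SE. The call of Cdh1 was lost without normal replicate 2, tumour replicate 1 or tumour replicate 2, and that of Krt7 without tumour replicate 1.

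**Figure D2:**
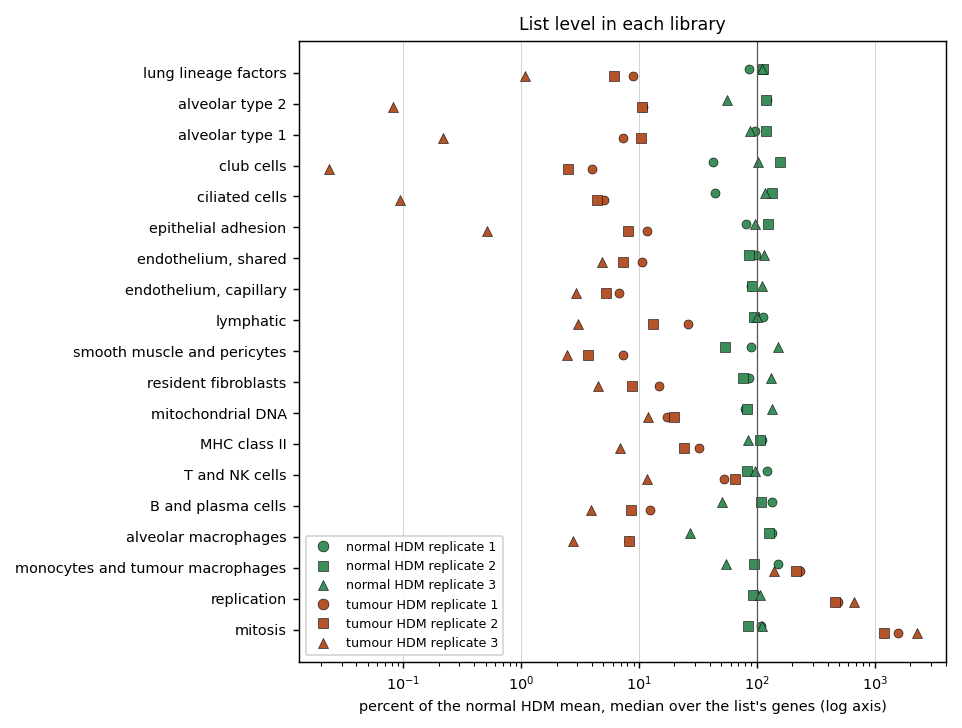
Level of 19 gene lists (rows) in each of the 6 HDM libraries, as a percent of the normal HDM mean (log axis), taking the median over the list's genes. Tumour replicate 3 (brown triangles) sits at 0.0815% for alveolar type 2 genes while tumours 1 and 2 sit at 10.9% and 10.7%, and is the highest of the tumours for replication and mitosis.

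Endothelial genes were lower in all 3 tumours. All 17 genes shared by blood vessel endothelium fell, with a median of -3.70, and the median gene stood at 10.7%, 7.27% and 4.82% of normal in tumours 1 to 3. Pecam1, an adhesion molecule on all endothelium, was at 572, 568 and 556 CPM in normal lung and 69.2, 38.6 and 29.5 CPM in tumours (log2 fold change -3.63 ± 0.38 SE, edgeR adjusted p = 0.00011). Of 18 capillary genes 17 fell, among them Tmem100, which marks lung capillaries (194, 249 and 381 to 3.78, 2.19 and 0.364 CPM, log2 fold change -7.04 ± 1.10 SE, edgeR adjusted p = 0.00067). The 1 that did not pass was Apln, the apelin peptide made by vessel sprouts, at 19, 22.2 and 47 CPM in normal lung and 53.6, 12.1 and 45.1 CPM in tumours. Vegfa, the main growth factor for endothelium, was lower in the tumours, at 65.4, 56.2 and 23.4 against 271, 356 and 583 CPM (log2 fold change -3.06 ± 0.45 SE, edgeR adjusted p = 0.00046). All 8 lymphatic genes passed as lower with a median of -2.45, but 4 did so without normal replicate 1, 5 without normal replicate 2, 5 without normal replicate 3 and 4 without tumour replicate 2.

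Contractile and fibroblast genes of the normal lung were also lower. Smooth muscle and pericyte genes fell for 17 of 19 members (median -4.53), and Rgs5 and Postn did not pass. Myh11, the smooth muscle myosin, was at 92.7, 84.8 and 401 CPM in normal lung and 5.34, 2.05 and 0.849 CPM in tumours (log2 fold change -6.15 ± 1.31 SE, edgeR adjusted p = 0.0034). Without normal replicate 3 the count was 12, and that library was the highest normal library for 18 of these 19 genes. There were 12 lower without tumour replicate 2 and 13 without tumour replicate 3. Heart muscle genes were lower in the tumours too: the 12 tested members summed to 249, 529 and 491 CPM in the normal libraries and 18.1, 2.53 and 1.33 CPM in the tumours, and 11 were lower. Among the normal libraries the 2 lists did not move together. The median smooth muscle gene was at 89.7%, 53.9% and 150% of its normal mean, and the median heart muscle gene at 66.3%, 142% and 77.5%. The part of such muscle tissue in the falls was not tested. Of 12 mesothelial genes 5 fell, with 3 lower without normal replicate 1, 3 without normal replicate 2, 2 without tumour replicate 1 and 3 without tumour replicate 3.

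Resident fibroblast genes were lower for 15 of 20 members, or for 11 without normal replicate 3, tumour replicate 2 or tumour replicate 3. Tcf21, a transcription factor of alveolar fibroblasts, went from 46.3, 48.4 and 79.8 to 1.23, 0.273 and 0 CPM (log2 fold change -6.92 ± 1.19 SE, edgeR adjusted p = 0.0011). Against the list, Dcn and Vegfd rose, and 3 genes did not pass. Dcn, the collagen-binding proteoglycan decorin (chr10:97315275-97358155), was at 213, 145 and 241 CPM in normal lung and 2190.4, 3275 and 2118 CPM in tumours (log2 fold change 3.66 ± 0.51 SE, edgeR adjusted p = 0.00037). Pdgfra, a growth factor receptor on fibroblasts, was at 193, 117 and 145 CPM in normal lung and 202, 231 and 265 CPM in tumours (log2 fold change 0.62 ± 0.27 SE, edgeR adjusted p = 0.078).

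Genes of DNA replication rose for 28 of 30 members (median log2 fold change 2.48), and genes of mitosis for all 30 (median 4.08). Tumour replicate 3 was the highest of the tumours for each of the 30 replication genes and each of the 30 mitosis genes. Mki67, the Ki-67 antigen of cycling cells, was at 8.23, 9.44 and 12.8 CPM in normal lung and 158, 122 and 236 CPM in tumours (log2 fold change 4.08 ± 0.58 SE, edgeR adjusted p = 0.00042). Cdk1, the kinase that starts mitosis, went from 4.34, 3.4 and 3.28 to 63, 57.9 and 104 CPM (log2 fold change 4.35 ± 0.57 SE, edgeR adjusted p = 0.00029). Ccnb1, its cyclin partner, rose 33.8-fold, from 3.03, 1.43 and 2.65 to 70.3, 51.5 and 119 CPM (log2 fold change 5.08 ± 0.83 SE, edgeR adjusted p = 0.00085). Kif11, the motor that separates the spindle poles, rose 18.4-fold (log2 fold change 4.20 ± 0.55 SE, edgeR adjusted p = 0.00027), and Cdc20, which turns on the anaphase-promoting complex, rose 9.27-fold (log2 fold change 3.21 ± 0.51 SE, edgeR adjusted p = 0.00074). Among replication genes, Mcm2 of the replicative helicase went from 18, 16.6 and 19.9 to 112, 115 and 143 CPM (log2 fold change 2.76 ± 0.19 SE, edgeR adjusted p = 6.7e-05). Cdc6, which loads that helicase, went from 1.39, 1.28 and 2.65 to 20.2, 13.7 and 23.5 CPM (log2 fold change 3.43 ± 0.39 SE, edgeR adjusted p = 0.00014), and Rrm1, the large subunit of ribonucleotide reductase, rose 4.07-fold (log2 fold change 2.03 ± 0.24 SE, edgeR adjusted p = 0.00016). The 2 that did not pass were Gins2 and Gins4 of the helicase complex, at 0.41 ± 0.23 SE and 0.43 ± 0.17 SE.

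Because these 2 lists moved together, their promoters were searched for 3 short motifs on both strands. These were TTCCCGC, the core that E2F factors bind, TTTGAA, known as the cell cycle homology region or CHR, and CCAAT, the core of the NF-Y site. RefSeq promoters of build GRCm38.p6, running from 250 bases before to 50 after a start, were at hand for 25 of the 30 replication genes (29 promoters) and 26 of the 30 mitosis genes (27 promoters). TTCCCGC was in 37.9% of the replication promoters and 3.7% of the mitosis promoters, against 4.6% of all 32851 promoters in the table. TTTGAA was in 77.8% of the mitosis promoters and 13.8% of the replication promoters, against 17.9% of all. CCAAT was in 81.5%, 58.6% and 37.4%. A match is a string of letters and says nothing of binding in these samples. The 150 bases before the start follow for 2 replication genes with TTCCCGC or its reverse complement in capitals, and for 3 mitosis genes with TTTGAA and CCAAT, or their reverse complements, in capitals. They are the promoters at chr11:98908001-98908150 (Cdc6, plus strand), chr7:102441545-102441694 (Rrm1, plus), chr10:69352913-69353062 (Cdk1, minus), chr4:118437344-118437493 (Cdc20, minus) and chr19:37376232-37376381 (Kif11, plus), each read 5′ to 3′ toward the gene.
Cdc6: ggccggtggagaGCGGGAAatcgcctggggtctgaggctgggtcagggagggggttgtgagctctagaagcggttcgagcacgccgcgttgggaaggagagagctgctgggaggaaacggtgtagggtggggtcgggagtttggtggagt
Rrm1: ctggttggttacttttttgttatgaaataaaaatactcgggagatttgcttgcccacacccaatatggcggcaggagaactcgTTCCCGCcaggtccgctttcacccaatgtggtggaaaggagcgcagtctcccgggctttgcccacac
Cdk1: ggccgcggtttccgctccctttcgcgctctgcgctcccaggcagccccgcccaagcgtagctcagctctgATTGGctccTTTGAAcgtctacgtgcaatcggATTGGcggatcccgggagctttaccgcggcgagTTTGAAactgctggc
Cdc20: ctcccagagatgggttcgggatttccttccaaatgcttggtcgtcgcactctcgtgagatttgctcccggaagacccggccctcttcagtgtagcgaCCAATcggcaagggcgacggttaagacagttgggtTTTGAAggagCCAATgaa
Kif11: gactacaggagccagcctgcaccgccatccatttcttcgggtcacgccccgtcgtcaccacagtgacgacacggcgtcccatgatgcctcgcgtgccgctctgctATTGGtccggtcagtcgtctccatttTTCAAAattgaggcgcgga
These 5 were picked because they hold matches in the 150 bases printed, so the place of their matches says nothing of the other promoters. The shares above count the whole stretch from 250 bases before to 50 after the start. In Cdc6 and Rrm1 the E2F letters occurred once each in the printed bases. No matches shown overlap.

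Regulators of entry into the cycle were mixed, with 9 of 20 higher, 6 lower and a median of 0.36. Ccne1, cyclin E1, rose 13.8-fold (1.31, 1.06 and 1.4 to 17.2, 12.6 and 22.3 CPM, log2 fold change 3.79 ± 0.60 SE, edgeR adjusted p = 0.00067). Ccnd1, the D cyclin that answers to growth factors, did not pass, with a log2 fold change of 0.38 ± 0.42 SE. The growth inhibitors Cdkn1c and Cdkn2b fell: Cdkn1c, an imprinted inhibitor of cyclin-dependent kinases, was at 60, 53.6 and 69 CPM in normal lung and 0.739, 2.25 and 0.243 CPM in tumours (log2 fold change -5.82 ± 1.02 SE, edgeR adjusted p = 0.0012). Cdkn2b was at 35.9, 23.1 and 19.8 and 2.38, 3.01 and 0.758 CPM (log2 fold change -3.68 ± 0.53 SE, edgeR adjusted p = 0.00039). Its neighbour Cdkn2a, which encodes the inhibitors p16 and p19, was low in both tissues, at 0.983, 0.982 and 0.957 CPM in normal lung and 0.0821, 0.205 and 0.182 CPM in tumours (log2 fold change -2.59 ± 0.67 SE, edgeR adjusted p = 0.0083).

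Myc, a transcription factor that drives growth and ribosome assembly, rose 18.8-fold, from 25.8, 9.55 and 16.6 to 303, 286 and 389.8 CPM (log2 fold change 4.23 ± 1.00 SE, edgeR adjusted p = 0.0056). Ribosome biogenesis genes rose for all 25 members, with a median of 1.96. Ncl, the nucleolar protein nucleolin, went from 225, 221 and 259 to 835, 833 and 1093 CPM (log2 fold change 1.97 ± 0.25 SE, edgeR adjusted p = 0.00023). Outputs of the RAS and MAP kinase pathway were higher for 14 of 22 members and lower for 3. Etv4, an ETS factor induced by the pathway, rose 43.9-fold (1.84, 0.227 and 1.1 to 30.7, 40.7 and 67.9 CPM, log2 fold change 5.46 ± 1.14 SE, edgeR adjusted p = 0.0031). Ereg, the growth factor epiregulin, rose 39.1-fold (1.15, 0.378 and 0.295 to 22.5, 29.1 and 19.5 CPM, log2 fold change 5.29 ± 1.04 SE, edgeR adjusted p = 0.0022), while Hbegf, another ligand of the same receptor family, fell (-1.16 ± 0.17 SE). The feedback phosphatase Dusp6 rose 2.07-fold (log2 fold change 1.05 ± 0.28 SE, edgeR adjusted p = 0.01), and Etv5, a relative of Etv4, fell, at 237, 163 and 105 CPM in normal lung, where alveolar type 2 cells make it, and 50.7, 57 and 61.7 CPM in tumours.

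Glycolysis and hypoxia genes were higher for 17 of 25 members and lower for 1, or 13 and 2 without normal replicate 2. Pkm, pyruvate kinase (chr9:59563364-59586663), was at 498, 387 and 318 CPM in normal lung and 2069.7, 2235 and 2217 CPM in tumours (log2 fold change 2.44 ± 0.34 SE, edgeR adjusted p = 0.00033). Of the hypoxia-inducible members, Egln3 rose 26-fold (6.47, 2.57 and 3.76 to 74.5, 90 and 168 CPM, log2 fold change 4.70 ± 1.05 SE, edgeR adjusted p = 0.0043) and Adm rose, with its highest level in tumour replicate 3 (15.8, 10.5 and 53.6 CPM, log2 fold change 2.61 ± 0.93 SE, edgeR adjusted p = 0.036). Vegfa fell, as given above, and 7 members did not pass, among them Car9 at 0.90 ± 0.65 SE and Pdk1 at 0.53 ± 0.29 SE. In a list of 23 amino acid and one-carbon genes 13 were higher, 3 were lower and 7 did not pass. Shmt2, the mitochondrial serine hydroxymethyltransferase, rose (17.6, 17.6 and 24 to 136, 139 and 160.3 CPM, log2 fold change 2.88 ± 0.34 SE, edgeR adjusted p = 0.00018), and Atf4, the factor that controls many of them, did not pass (0.31 ± 0.24 SE). Transcripts of the mitochondrial genome were lower for all 12 tested (median -2.59). Mitochondrial counts made up 1.96% to 3.62% of the normal libraries and 0.342% to 0.627% of the tumours. Adm did not pass without any 1 of the normal libraries or without tumour replicate 3.

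**Figure D3:**
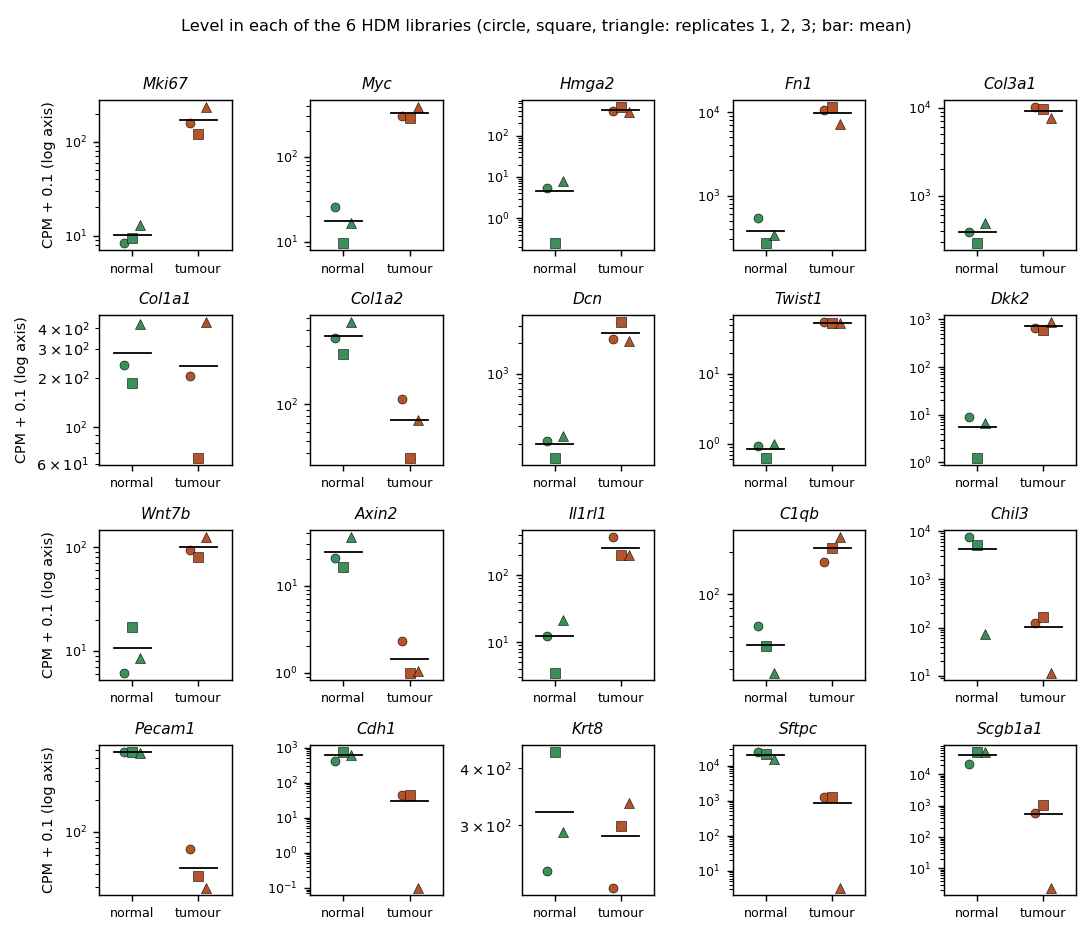
Level of 20 genes in the 6 HDM libraries, as CPM plus 0.1 on a log axis, with a panel for each gene, circles, squares and triangles for replicates 1, 2 and 3, and a bar at the group mean. Mki67 in the tumours is between 122 and 236 CPM, Col3a1 is high and Col1a2 low in the tumours, and Cdh1 and Sftpc are near 0 in tumour replicate 3.

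Genes of fetal growth and imprinted genes were higher for 12 of 17 members. Hmga2, a chromatin protein of the embryo (chr10:120197173-120313095), was at 5.28, 0.151 and 7.99 CPM in normal lung and 395, 498 and 372 CPM in tumours (log2 fold change 6.56 ± 1.70 SE, edgeR adjusted p = 0.0089). Igf2bp2, which binds fetal growth factor messages, went from 17, 15.7 and 25 to 195, 229.8 and 192 CPM (log2 fold change 3.42 ± 0.46 SE, edgeR adjusted p = 0.00033). H19, the maternally expressed long RNA, was high but uneven, at 169.6, 24 and 123 CPM in tumours against 3.73, 0.415 and 0.442 CPM in normal lung (log2 fold change 6.12 ± 1.40 SE, edgeR adjusted p = 0.0049). Lin28b, an RNA-binding protein that blocks let-7 processing, had no count in the 3 normal libraries and 0.986, 1.3 and 1.4 CPM in the tumours, which makes it at least 10.6-fold higher against a floor of 3 counts per library. Plagl1 and Cdkn1c, which are imprinted growth inhibitors, fell, with log2 fold changes of -4.97 and -5.82.

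On the X chromosome, 7 of 11 tested germline and placental genes rose, and 11 of the 22 in the list were below the count filter. With the tag as a block 2 rose, and without the HDM libraries of conflicting tag 4 did. The 11 tested genes summed to 12.1, 4.3 and 9.5 CPM in the normal HDM libraries and to 316, 366 and 542 CPM in the tumours. A member near 0 in normal lung passes the count filter only if tumours hold it, so the share that rose is partly set by the filter. Nxf3, a germline RNA export factor (chrX:134972848-134986152), was at 0.164, 0 and 0.295 CPM in normal lung and 32.3, 44.5 and 53.6 CPM in tumours (log2 fold change 8.10 ± 1.74 SE, edgeR adjusted p = 0.0035). Rhox5, a homeobox gene of the testis and placenta, went from 4.75, 0.906 and 3.76 to 188, 213 and 309 CPM (log2 fold change 6.24 ± 1.36 SE, edgeR adjusted p = 0.0038), and Plac1, a placental gene, from 0.983, 0 and 0.147 to 19.3, 13.7 and 40.6 CPM (log2 fold change 6.03 ± 1.79 SE, edgeR adjusted p = 0.017). Rhox2d, Rhox2g and Rhox2h also rose, but they are near-identical copies whose reads may be shared. Xlr3a fell (-3.45 ± 1.08 SE) although Xlr3c rose (5.75 ± 1.57 SE), and these too are near copies. Xist, the RNA made from the inactive X chromosome, was near 0 in normal lung (1.31, 0.566 and 1.03 CPM) and uneven in the tumours (143, 59.8 and 389.6 CPM, log2 fold change 7.67 ± 0.81 SE, edgeR adjusted p = 0.00013). The Y-linked gene Ddx3y, an RNA helicase, was at 61.8, 50.5 and 66.2 CPM in normal lung and 11.1, 12.5 and 9.07 CPM in tumours (log2 fold change -2.45 ± 0.17 SE, edgeR adjusted p = 6.7e-05). The other Y-linked genes, Eif2s3y, Kdm5d and Uty, fell too, with log2 fold changes of -2.29, -2.25 and -2.41. Every tumour held all 4 Y-linked RNAs along with Xist. Plac1 and Rhox2h did not pass without normal replicate 2 or 3, nor Xlr3a without normal replicate 1, tumour replicate 2 or tumour replicate 3.

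Genes of Wnt signalling, a pathway of secreted ligands that stabilises beta-catenin in receiving cells, were mostly lower. Of 14 tested ligands and R-spondins, 12 fell, 1 rose and 1, Wnt9a, did not pass. Wnt2, a ligand of lung fibroblasts, was at 5.28, 5.21 and 9.24 CPM in normal lung and at or below 2 counts in each tumour, at least 62.3-fold lower against the floor. Wnt3a was at 17.3, 19 and 15.7 CPM in normal lung and 0.657, 0.854 and 0 CPM in tumours (log2 fold change -5.11 ± 0.94 SE, edgeR adjusted p = 0.0015). The ligand that rose was Wnt7b, which fetal lung epithelium makes, at 6.02, 17 and 8.36 CPM in normal lung and 94.9, 80.9 and 126 CPM in tumours (log2 fold change 3.27 ± 0.41 SE, edgeR adjusted p = 0.00024). Among 8 secreted antagonists, Dkk2, which blocks the LRP co-receptors (chr3:131790336-131886065), rose 132-fold, from 8.85, 1.13 and 6.48 to 672, 611 and 891 CPM (log2 fold change 7.04 ± 1.39 SE, edgeR adjusted p = 0.0023). Frzb also rose at low levels (3.61, 1.09 and 1.4 CPM in tumours), and Dkk3, Sfrp2, Wif1 and Notum fell. Of 12 target genes 6 fell, and Axin2, the target most widely used as a readout, went from 20.8, 16.1 and 36.4 to 2.22, 0.888 and 0.94 CPM (log2 fold change -4.19 ± 0.48 SE, edgeR adjusted p = 0.00015). Rnf43, which removes Wnt receptors from the surface, went from 13.8, 19.3 and 18 to 1.23, 0.888 and 0.182 CPM (log2 fold change -4.48 ± 0.69 SE, edgeR adjusted p = 0.00055). Apcdd1, a target that itself binds Wnts, rose 25.5-fold (10.7, 7.44 and 16.2 to 187, 263 and 425 CPM, log2 fold change 4.67 ± 0.67 SE, edgeR adjusted p = 0.00046). Sfrp2 did not pass without normal replicate 1 or 2 or tumour replicate 1 or 3.

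Mesenchymal and matrix genes rose unevenly. Of 16 genes of epithelial to mesenchymal transition 12 were higher and 2 lower. There were 8 higher without normal replicate 2, and 9 without tumour replicate 1, with the tag as a block or with DESeq2's Wald test. Twist1, a transcription factor of mesenchyme, was nearly the same in the 3 tumours (55, 52.3 and 53.2 CPM against 0.819, 0.529 and 0.884 CPM, log2 fold change 6.16 ± 1.16 SE, edgeR adjusted p = 0.0018), and Prrx1 was at 243, 269 and 357 CPM against 16.8, 9.67 and 24.5 CPM (log2 fold change 4.09 ± 0.71 SE, edgeR adjusted p = 0.0011). Cdh11, a cadherin of fibroblasts, fell from 54.5, 57 and 84.3 to 7.23, 4.78 and 2.43 CPM (log2 fold change -3.77 ± 0.46 SE, edgeR adjusted p = 0.0002). Fn1, the matrix glycoprotein fibronectin (chr1:71624673-71692419), had the largest gain in CPM of all genes that met the naming rule, from 534, 269 and 336 to 10641, 11591 and 7157 CPM (log2 fold change 4.69 ± 0.84 SE, edgeR adjusted p = 0.0014).

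Fibrillar collagen chains moved in opposite directions. Col3a1, the only chain of collagen III (chr1:45350698-45395840), went from 390.3, 289 and 487 to 10276, 9690.0 and 7764 CPM (log2 fold change 4.57 ± 0.64 SE, edgeR adjusted p = 0.00039). Col1a2, a chain of collagen I, fell from 347, 255 and 468 to 110.3, 36.5 and 74.8 CPM (log2 fold change -2.27 ± 0.62 SE, edgeR adjusted p = 0.011). Col1a1, the partner chain of collagen I, did not pass, at 237, 185 and 425 CPM in normal lung and 204, 64.8 and 437 CPM in tumours (log2 fold change -0.26 ± 0.75 SE, edgeR adjusted p = 0.79). Per kilobase of transcript, the mean levels of Col3a1, Col1a1 and Col1a2 were 39.6, 43 and 28.7 CPM in normal lung and 942, 35.8 and 5.94 CPM in the tumours. Collagen V split as well: Col5a1 rose 12.1-fold (31.7, 28.4 and 62.2 to 647, 432 and 406 CPM, log2 fold change 3.60 ± 0.49 SE, edgeR adjusted p = 0.00034) and Col5a2 fell (66.2, 50.6 and 59.4 to 36.9, 20 and 17.1 CPM, log2 fold change -1.25 ± 0.48 SE, edgeR adjusted p = 0.048). The cross-linking enzyme Lox fell (-1.98 ± 0.41 SE) and its relative Loxl2 rose (1.34 ± 0.49 SE). Col1a2 did not pass without tumour replicate 2, Col5a2 when any HDM library but tumour replicate 1 was left out, and Loxl2 without normal replicate 1 or 2 or tumour replicate 1 or 2.

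Markers used for fibroblasts of tumours varied among the tumour libraries. Lrrc15 was at 36.2, 21.2 and 5.03 CPM in tumours against 0.0819, 0 and 0.516 CPM in normal lung (log2 fold change 6.65 ± 1.18 SE, edgeR adjusted p = 0.0013), and Tnc, the matrix protein tenascin C, was at 269.7, 88.8 and 9.7 CPM in tumours against 9.58, 10.1 and 33.5 CPM (log2 fold change 2.79 ± 1.04 SE, edgeR adjusted p = 0.045). Both were lowest in tumour replicate 3, where Tnc lay within the range of normal lung. Thbs2, thrombospondin 2, was high in all 3 (1073, 1389 and 736 against 16.2, 2.94 and 20 CPM, log2 fold change 6.35 ± 1.37 SE, edgeR adjusted p = 0.0036). Of 21 genes of this list 10 rose and 4 fell, against 11 and 2 without normal replicate 3 and 8 and 1 without tumour replicate 2. Among 22 proteases and inhibitors 9 rose and 5 fell. Mmp14, a membrane collagenase, went from 128, 60.2 and 98.6 to 813, 1002 and 706 CPM (log2 fold change 3.14 ± 0.50 SE, edgeR adjusted p = 0.00073), and Plau, urokinase, from 13.3, 9.78 and 15.4 to 130.3, 118 and 173 CPM (log2 fold change 3.45 ± 0.49 SE, edgeR adjusted p = 0.00043). The inhibitor Timp3 fell from 989, 701 and 657 to 42.7, 62 and 12 CPM (log2 fold change -4.33 ± 0.61 SE, edgeR adjusted p = 0.0004). Mmp12, the macrophage elastase, was at 108, 220.4 and 12.9 CPM in tumours against 8.36, 11.6 and 7.22 CPM in normal lung (log2 fold change 3.65 ± 1.01 SE, edgeR adjusted p = 0.012), and tumour replicate 3 was again near the normal range. Tnc did not pass without normal replicate 1 or 2 or tumour replicate 1 or 2.

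Macrophage genes were mixed. Of 20 genes of monocytes and tumour macrophages 8 rose, none fell and 12 did not pass, or 8 rose and 2 fell with the tag as a block. Of all genes tested 23% were higher and 51.9% were called, so by its number of calls this list does not stand apart. C1qa, C1qb and C1qc, which encode the complement C1q chains of tissue macrophages, rose together: C1qb was at 59.6, 43.5 and 27.8 CPM in normal lung and 168, 212 and 254 CPM in tumours (log2 fold change 2.28 ± 0.45 SE, edgeR adjusted p = 0.0023). Adgre1, the F4/80 antigen, rose from 46.2, 34.4 and 11.6 to 69.1, 70 and 90.2 CPM (log2 fold change 1.31 ± 0.50 SE, edgeR adjusted p = 0.047), and Spp1, osteopontin, rose 22.7-fold (194, 98 and 121 to 2732, 3988 and 2618 CPM, log2 fold change 4.50 ± 0.82 SE, edgeR adjusted p = 0.0015). The C1q genes and Adgre1 were as high in tumour replicate 3 as in the other tumours. Without normal replicate 3, 6 of the list rose. Arg1, arginase 1, lay above normal lung in all 3 tumours (78.7, 151 and 116 against 28.5, 3.17 and 0.957 CPM) and did not pass (log2 fold change 3.40 ± 1.59 SE, edgeR adjusted p = 0.095). Adgre1 passed without normal replicate 1 but not when any other HDM library was left out.

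Alveolar macrophage genes were lower for 10 of 16 members, against 28.9% of all genes tested. Their median was -3.98, or -3.42 with genes at the floor set at their bound. The 16 genes summed to 8976, 6443 and 368 CPM in the normal libraries, and to 364, 540.1 and 456 CPM in the tumours. Chil3 made up most of the sum in normal replicates 1 and 2. The median gene of the list stood at 135%, 127% and 27% of its normal mean in normal replicates 1 to 3 and at 8.19%, 8.28% and 2.74% in tumours 1 to 3. Without normal replicate 3, 10 were lower. Chil3, a chitinase-like protein of alveolar macrophages in type 2 inflammation, was at 7705, 5271 and 75.3 CPM in normal lung and 123, 169 and 11.3 CPM in tumours (log2 fold change -5.43 ± 2.0 SE, edgeR adjusted p = 0.042), and the groups overlapped. Car4, which lung capillaries also make, did not share that pattern, at 114, 144 and 127 CPM in normal lung and 3.04, 1.47 and 0.425 CPM in tumours (log2 fold change -6.31 ± 1.02 SE, edgeR adjusted p = 0.0008). Chil3 passed without normal replicate 3 but not when any other HDM library was left out.

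B cell genes were lower and antibody genes were uneven. Of 20 tested genes 13 fell, with a median of -3.57, and 15 fell without normal replicate 3. Cd79a, part of the B cell receptor, was at 37.8, 21.8 and 18.9 CPM in normal lung and 3.12, 1.84 and 0.607 CPM in tumours (log2 fold change -3.82 ± 0.63 SE, edgeR adjusted p = 0.00078). Ighg1, the constant region of immunoglobulin G1, was at 1202, 775 and 1.1 CPM in normal lung and 68.8, 33.9 and 1.49 CPM in tumours and did not pass (log2 fold change -4.25 ± 2.53 SE, edgeR adjusted p = 0.18). Jchain, which joins immunoglobulin A chains, was at 1076, 646 and 5.01 CPM in normal lung and 21.9, 47.1 and 2.85 CPM in tumours and did not pass (log2 fold change -4.59 ± 2.02 SE, edgeR adjusted p = 0.08). For both genes, normal replicate 3 lay far below the other normal libraries.

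T and natural killer cell genes were low in every library, with 7 of 26 lower, none higher and a median of -1.01. Of all genes tested 28.9% were lower, so this count does not stand apart. There were 3 lower and 1 higher without tumour replicate 3, and 4 lower without normal replicate 1, normal replicate 3 or tumour replicate 1. Cd4 was at 7.78, 7.48 and 3.39 CPM in normal lung and 1.72, 2.19 and 0.819 CPM in tumours (log2 fold change -1.98 ± 0.63 SE, edgeR adjusted p = 0.022). Of 20 neutrophil genes 2 rose, Cxcl2 and Csf3, and 18 did not pass. These counts depended on the fit: 3 rose and 6 fell with the tag as a block, and 4 rose and 3 fell with DESeq2's Wald test. No gene of the list rose without normal replicate 2 or 3, 1 rose without each of the other HDM libraries, and 1 fell without tumour replicate 3. The list's median of -1.10 became 0.77 without normal replicate 1. Csf3, a growth factor for neutrophils, was at the floor in normal lung and at 0.78, 4.37 and 3.03 CPM in tumours, at least 23.6-fold higher. Normal replicate 1 was the highest normal library for 17 of the 20, and S100a8, a granule protein of neutrophils, was at 163, 23.3 and 5.34 CPM in normal lung and 5.38, 17.8 and 2.61 CPM in tumours. Cd4 did not pass without normal replicate 1 or 2 or tumour replicate 1 or 3, Cxcl2 did not pass when any HDM library but normal replicate 1 was left out, and Csf3 did not pass without any 1 of the normal libraries.

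Genes of the type 2 response that house dust mite provokes were mixed. Of the 34 in the list, 7 were below the count filter, among them Il5, Il13 and Epx. Of the 27 tested, 2 rose, 8 fell and 17 did not pass. There were 1 higher and 5 lower without normal replicate 2 or without tumour replicate 2, 1 and 7 without normal replicate 3, and 1 and 6 without tumour replicate 1. Il1rl1, the receptor for interleukin-33, rose 20.7-fold, from 12.3, 3.36 and 21.6 to 374, 196 and 202 CPM (log2 fold change 4.37 ± 1.29 SE, edgeR adjusted p = 0.016). Its ligand Il33 did not pass, at 154, 252 and 35.8 CPM in normal lung and 166, 169 and 234 CPM in tumours (log2 fold change 0.36 ± 0.70 SE, edgeR adjusted p = 0.69). Il13ra2, a receptor that captures interleukin-13, rose at low levels (0.246, 0 and 0 to 3, 2.49 and 0.607 CPM, log2 fold change 4.60 ± 1.66 SE, edgeR adjusted p = 0.038), and Il13ra1, which signals, fell (95.6, 124 and 76 to 19.1, 23 and 11 CPM, log2 fold change -2.48 ± 0.32 SE, edgeR adjusted p = 0.00025). Ccl17, a chemokine that draws type 2 helper cells, fell from 5.2, 8 and 6.48 to 0.657, 0.546 and 0 CPM (log2 fold change -4.04 ± 0.86 SE, edgeR adjusted p = 0.0031). Muc5ac, the mucin of goblet cells, was at 1.31, 20.2 and 1.8 CPM in normal lung, high in replicate 2 alone, and at 0.739, 0.478 and 0 CPM in tumours (log2 fold change -4.27 ± 1.53 SE, edgeR adjusted p = 0.038). Il1rl1 did not pass without normal replicate 1 or 2, Il13ra2 without normal replicate 2 or 3 or tumour replicate 1 or 2, and Muc5ac without normal replicate 2 or any 1 of the tumours.

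MHC class II genes, which present antigen to helper T cells, were lower for 11 of 12 members, with a median of -2.27. H2-Ab1, a class II chain, was at 553, 559 and 514 CPM in normal lung and 177, 128 and 41.9 CPM in tumours (log2 fold change -2.23 ± 0.42 SE, edgeR adjusted p = 0.0017). Cd74, the invariant chain, was at 1418, 1446 and 955 CPM in normal lung and 413, 280.3 and 71.5 CPM in tumours (log2 fold change -2.32 ± 0.49 SE, edgeR adjusted p = 0.003). Ciita, the factor that switches the class II genes on, was at 25.6, 26.8 and 22.2 and 12.1, 6.28 and 2.88 CPM (log2 fold change -1.81 ± 0.43 SE, edgeR adjusted p = 0.0056). Tumour replicate 3 was the lowest of the tumours for all 12 members, and without it 11 were still lower, with a median of -1.71. The 1 that did not pass was Ctss, a protease of antigen processing. Of 15 class I genes 6 fell, among them H2-K1 (1496, 1368 and 887 to 425, 346 and 119 CPM, log2 fold change -2.08 ± 0.42 SE, edgeR adjusted p = 0.0023) and Psmb8 of the immunoproteasome (93, 87.7 and 67.3 to 27.5, 29.3 and 12 CPM, log2 fold change -1.85 ± 0.28 SE, edgeR adjusted p = 0.00052). The median of the class I list was -0.78. With scaling by library size only, or without normal replicate 2, 5 class I genes were lower and 2 higher. There was 1 higher without tumour replicate 2 or 3, and DESeq2's Wald test gave 10 lower. Interferon response genes had 4 higher, 2 lower and 22 that did not pass, with a median of 0.06, and these counts moved with single libraries. There were 7 higher and 1 lower without tumour replicate 3, 1 higher and 3 lower without tumour replicate 1, 3 higher and 1 lower without tumour replicate 2, 1 higher and 2 lower without normal replicate 1, 0 higher and 1 lower without normal replicate 2, and 4 higher and 1 lower without normal replicate 3. Cxcl9 and Cxcl10, chemokines induced by interferon gamma, rose: Cxcl10 was at 3.6, 2.34 and 2.8 CPM in normal lung and 32.9, 22.5 and 5.46 CPM in tumours (log2 fold change 2.79 ± 0.84 SE, edgeR adjusted p = 0.018). Cxcl10 did not pass without normal replicate 2 or tumour replicate 1, nor Cxcl9 without normal replicate 1, normal replicate 2 or tumour replicate 2.

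The same tissue difference under VEH gave 8624 genes at an adjusted p under 0.05 (38.9%). The VEH groups were uneven. On the first principal component tumour VEH replicate 2 was at -0.57, against 86.5 and 38.7 for tumour VEH replicates 1 and 3. Normal VEH replicate 2 had Dkk2 at 104 CPM, against 5.42 and 4.29 CPM in normal VEH replicates 1 and 3. How far this spread lowered the VEH count was not tested. The difference between the arms was tested as an interaction in the same edgeR fit. No gene passed edgeR's test at an adjusted p under 0.05, and 2084 of 22190 genes (9.39%) had an unadjusted p under 0.05. DESeq2's Wald test of the same term gave 222 genes, and edgeR without tumour HDM replicate 3 gave 6. In the class II list 11 of 12 members had an unadjusted interaction p under 0.05, and their median fold change under VEH was 0.85. H2-Ab1 was at 496, 296 and 405 CPM in normal VEH and 922, 913 and 701 CPM in tumour VEH libraries, so tumours lay above normal lung under VEH and below it under HDM. The arms' difference for H2-Ab1 was -3.31 on the log2 scale, with an edgeR adjusted p = 0.29. DESeq2's Wald test called 10 of the 12 class II genes for this difference. With the tag as a block edgeR called none of them (smallest edgeR adjusted p = 0.25). Nor did it without the HDM libraries of conflicting tag (smallest edgeR adjusted p = 0.41). The disagreement of tags and labels given above bears on any comparison of the arms. Of the 6 genes that edgeR called without tumour HDM replicate 3, 4 were the class II genes H2-Aa, H2-Ab1, H2-Eb1 and Cd74, each at an adjusted p of 0.037. How the authors' counting treated strand is not given in the sources used here, so reads of H2-Aa and H2-Eb1, which overlap on opposite strands, may be mixed, as may those of H2-DMa with Brd2, Ciita with Dexi and Rhox5 with Gm61728. T and natural killer cell genes had 16 of 26, class I genes 12 of 15 and interferon response genes 15 of 28 members under the unadjusted threshold. The naming rule took genes whose tumour-minus-normal difference was lower, or higher, under HDM than under VEH. Among those lower, the smallest unadjusted edgeR interaction p were of H2-DMa (4.8e-05), Tap2 (6.1e-05) and Ccdc184 (0.00011). Among those higher, they were of Gm6634 (0.00053), Zdhhc20 (0.0011) and Msi2 (0.0011).

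**Figure D4:**
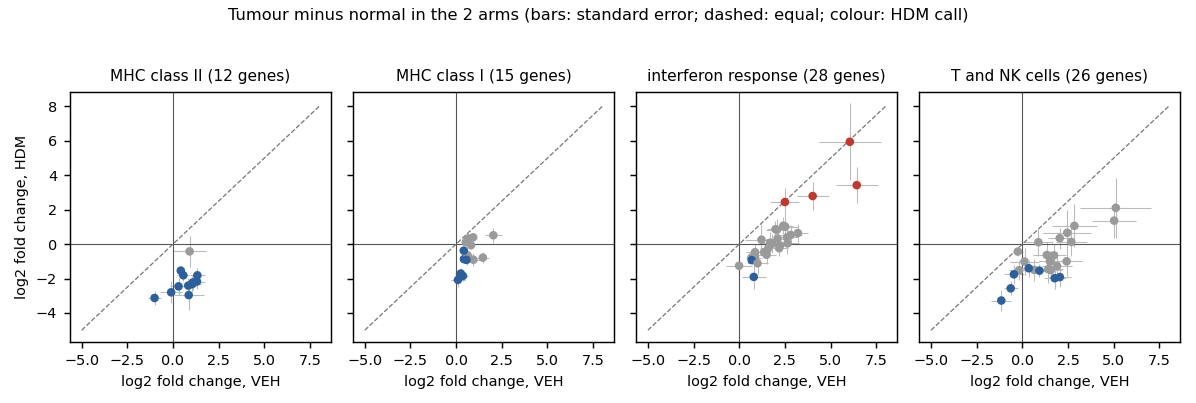
Log2 fold change (tumour minus normal) under HDM (vertical axis) against that under VEH (horizontal axis) for the genes of 4 lists, with standard errors as bars, the dashed line where the arms are equal and colour for the HDM call. The class II genes other than H2-Oa and H2-Ob lie below 0 under HDM and above 0 under VEH, and no gene passed edgeR's interaction test after adjustment with all 12 libraries.

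Genes of the renin-angiotensin system, which sets blood pressure and is active on lung endothelium, differed by member. Of 8 tested, 2 rose and 4 fell, with a median of -3.39. Ace, the converting enzyme of lung capillaries, fell from 1376, 939 and 694 to 55, 49.1 and 9.83 CPM (log2 fold change -4.72 ± 0.61 SE, edgeR adjusted p = 0.00027). The receptor Agtr1a fell (-3.89 ± 0.63 SE), and the receptor Agtr2, which is mostly fetal, was at 0.492, 0 and 0 CPM in normal lung and 13.4, 2.46 and 45.1 CPM in tumours (log2 fold change 6.96 ± 1.63 SE, edgeR adjusted p = 0.0054). Lnpep, an aminopeptidase that binds angiotensin IV, rose from 134, 112 and 109 to 213, 221 and 211 CPM (log2 fold change 0.86 ± 0.19 SE, edgeR adjusted p = 0.0041).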

How the data were processed

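RNA from 12 mouse tissue pieces was sequenced, and the authors deposited raw read counts per gene, 1 column a library. Per the submitters' processing notes, Trim Galore, STAR, Subread featureCounts and build mm39 were used. Versions and the strand setting are not given in the sources used here. Per the labels' protocols, libraries were stranded and paired-end. Of 78298 gene IDs, 78168 matched GENCODE release M 39 (GRCm39), and the other 130 held 0.143% of counts and stayed out.

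Counts were fitted with edgeR 4.0.16 in R 4.3.3: genes filtered with filterByExpr at a minimum count of 10, TMM scaling, and a robust quasi-likelihood fit over all 12 libraries with 1 mean a group, so that the groups share an estimate of spread. Tumour was tested against normal under HDM, two-sided, with Benjamini-Hochberg adjustment over 22190 genes, and a change was called at an adjusted p under 0.05. Standard errors come from the F statistic. A gene with at most 3 counts in every library of a group was at the floor, and its fold is a bound. Floors cover counting error only. The fit was tested on simulated data. The labels do not say that the libraries came from separate animals, so p-values measure the spread between these samples, which may be technical. Replicate pairs differed by more than counting noise (chi-square per degree of freedom 32.6 to 167). Deviations from the group means correlated at -0.10, 0.16 and 0.16 between same-numbered normal and tumour HDM libraries. Between normal and tumour HDM libraries that share a tag the correlations were 0.14 and 0.019. The replicate numbers do not follow the tags, so the main fit used no pairing. Fits with either as a block are given among the alternatives.

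Named genes are members of the lists, the 15 largest rises and 15 largest falls in log2, and the 10 largest each way in CPM. The last 2 sets took protein-coding genes with at least 20 CPM in the higher group and no overlap between groups. For the arms' difference, the 3 smallest p each way were named. The members and lists were chosen with earlier results of these data known. Promoter sequences are from RefSeq (GRCm38.p6), another build than the counts. DESeq2 1.42.0, other scalings and filters, blocks, and leaving out each library were the alternatives tried. One result is not reported here.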

Additional observations from a re-analysis of the deposited data

How the results depend on the processing

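The count of 11512 changed genes under HDM ranged from 7900 (at least 10 counts in every library, 15292 genes tested) to 12409 (DESeq2's Wald test). That stricter filter left 4157 genes lower in the tumours, against 6402. With the replicate number as a block, 11001 genes were called, 10727 of them shared with the 11512 and all 10727 in the same direction. The replicate numbers do not follow the tags. With the tag as a block there were 8631. Without the 2 HDM libraries whose tag joins a VEH library there were 9041. Leaving out each HDM library gave 9822 to 10695 changed, 4222 to 5328 higher and 4842 to 5755 lower. Scaling by library size only moved the median of all genes from -0.08 to 0.10 and gave 6161 higher and 5723 lower. DESeq2 size factors gave a median of -0.14. The difference between the arms gave 222 genes with DESeq2's Wald test, and 0 to 6 with edgeR when each of the 12 libraries was left out: 6 without tumour HDM replicate 3, 1 (Mgl2) without normal VEH replicate 1 and 0 in the other 10 fits.

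With at least 10 counts in every library the Wnt antagonists' median became 0.91 (2 genes tested) and that of the type 2 response 0.00027 (10 genes tested). None of the named genes that passed turned direction under any alternative run. Of those that did not pass, Col1a1 was at 0.14 with the tag as a block, 0.69 without the libraries of conflicting tag and -0.93 to 0.29 with each HDM library left out. Krt8 was at 0.0087 with library size only and -0.35 to 0.11 with each library left out. Bpifa1 ranged from -3.57 to 3.78 and Ctss from -0.78 to 0.13 in the same way. Of 160 named genes, 23 lost their call with the tag as a block, 29 without the libraries of conflicting tag, 22 with no filter on low counts and 7 with the replicate block, which were Adm, Cav1, Col5a2, Cxcl2, Loxl2, Muc5ac and Tnc. The cause was not tested.

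Of 18 alveolar type 2 genes lower, 7 passed with no filter and 8 with the tag as a block. For ciliated genes 12 of 21 passed with the tag as a block, and for club cell genes 8 of 13. Without the libraries of conflicting tag, the calls went from 17 to 10 higher for glycolysis and hypoxia, and from 12 to 6 lower for Wnt ligands, 17 to 11 for smooth muscle, 12 to 7 for mitochondrial DNA and 11 to 6 for cardiac muscle. Of the named genes, 47 of 160 overlap a gene on the other strand whose own total count is over 10% of theirs. For Cdc20, Cdk1 and Ccne1 the other gene's total was 594%, 252% and 262% of theirs. Genes near the floor of 3 counts a library, as for Cdkn2a, Frzb and Il13ra2, are limited by depth.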
